A study of Homo sapiens with 8 samples.

Results

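The transcripts of 7 genes were followed across control and RBM6-knockout human mammary epithelial cells: GDA, CRAT, GAMT, GRAMD1B, SLC2A3, FBXO32 and ATOH8. They are 7 of the 58233 gene rows of the counts table, and they were chosen because their levels differed widely between knockout and control cells both with and without ionizing radiation (IR), no numeric threshold being stated. Their knockout differences are therefore given as a description and without a test, while their responses to IR were tested. RNA-seq had been performed on MCF10A-Hras cells, a line of non-tumorigenic breast epithelial cells that carries the HRAS oncogene, which all 4 groups share. The groups were control (WT) cells, untreated or collected 12 h after 5 Gy of IR from an X-ray machine, and RBM6-KO1 cells, untreated or after the same dose and time. Each group had 2 libraries, A and B, which the study describes as biological replicates. RBM6-KO1 is a single clone, made with a pair of guides and a Cas9 nickase directed at exon 3 of RBM6, which encodes an RNA-binding protein that regulates splicing, so differences of the clone and of the knockout cannot be told apart.

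GDA, CRAT and GAMT encode enzymes of small-molecule metabolism. Guanine deaminase (GDA) turns guanine into xanthine, carnitine O-acetyltransferase (CRAT) moves acetyl groups between coenzyme A and carnitine, and guanidinoacetate N-methyltransferase (GAMT) carries out the final step of creatine synthesis. GRAMD1B carries cholesterol from the plasma membrane to the endoplasmic reticulum, SLC2A3 (GLUT3) is a glucose transporter, FBXO32 (atrogin-1) is the substrate-binding F-box subunit of a ubiquitin ligase and a FOXO target known from wasting muscle, and ATOH8 is a basic helix-loop-helix (bHLH) transcription factor that BMP signalling induces in several cell types.

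The RefSeq promoter table used here (GRCh38.p14) was matched to 2 of the 7 members, GDA and ATOH8, which are also the 2 with more RNA in RBM6-KO1 cells. CRAT, GAMT, GRAMD1B, SLC2A3 and FBXO32 were not matched. Both promoters are shown for their E-boxes (CANNTG, which reads the same on both strands), the letters that bHLH factors such as ATOH8 bind. Each window runs from 250 bases before to 50 bases after the RefSeq start, at chr2:85753741-85754040 on the + strand for ATOH8 and chr9:72149190-72149489 on the + strand for GDA. These starts lie 2647 and 34845 bases downstream of the GENCODE gene starts given below, which belong to other transcripts, and which start these cells used was not measured. Capitals mark every CANNTG match.
ATOH8: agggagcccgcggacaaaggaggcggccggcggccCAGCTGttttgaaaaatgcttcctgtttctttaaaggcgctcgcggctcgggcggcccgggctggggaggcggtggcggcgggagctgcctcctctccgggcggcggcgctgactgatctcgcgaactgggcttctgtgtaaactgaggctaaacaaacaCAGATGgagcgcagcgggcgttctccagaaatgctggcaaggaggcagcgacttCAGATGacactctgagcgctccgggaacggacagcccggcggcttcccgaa
GDA: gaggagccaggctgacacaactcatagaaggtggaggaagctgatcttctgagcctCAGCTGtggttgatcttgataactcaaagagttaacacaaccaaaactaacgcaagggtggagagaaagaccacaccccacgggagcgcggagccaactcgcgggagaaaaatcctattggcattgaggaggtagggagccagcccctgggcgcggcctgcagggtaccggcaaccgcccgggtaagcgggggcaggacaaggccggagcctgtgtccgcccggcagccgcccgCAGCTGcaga
The ATOH8 window held 3 CANNTG matches, starting at bases 36, 196 and 250 counted from its 5′ end, and the first of them was CAGCTG. The GDA window held 2, starting at bases 57 and 291, both CAGCTG. Of 35116 RefSeq promoters of this length, 68.7% held at least 1 CANNTG and 17.9% at least 1 CAGCTG, which is itself one form of CANNTG. At least 3 CANNTG matches were present in 15.3% of promoters, at least 2 CANNTG matches in 36.4% and at least 2 CAGCTG matches in 2.05%. The forkhead core GTAAACA, searched on both strands and present in 3.42% of promoters, and the SMAD-bound GGCGCC, present in 19.2%, matched in neither window. A match of letters is no evidence of binding.

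Libraries held 15355281 to 29832009 counts on genes, so that 3 counts, the limit a count of 0 allows, came to 0.0964 to 0.204 CPM, the unit of all levels here (counts scaled to a common library size). RBM6 mRNA itself was retained in the knockout, at 66.8 and 68.7 CPM in untreated control and 61.4 and 63.1 CPM in untreated RBM6-KO1 libraries (log2 fold change -0.14, SE 0.15, edgeR adjusted p = 0.712), and at a log2 fold change of -0.40 after IR (SE 0.20, adjusted p = 0.535). This transcript level does not check a frameshift knockout. All 7 basal breast epithelial markers exceeded 1 CPM in every library, among them KRT5 at 1056 to 1621 CPM, CDH1 at 12.2 to 49.4, TP63 at 15.8 to 46.7 and EPCAM at 5.28 to 26.7 CPM, while all 4 blood markers and all 3 luminal hormone receptor markers stayed under 1 CPM throughout. Of 5 fibroblast markers, DCN and COL1A1 exceeded 1 CPM in every library and COL1A2 had at most 1 count. DCN, at 66.5 to 204 CPM, made up most of their sum. The 5 summed to 81.0 and 81.4 CPM in untreated control, 91.1 and 108 in irradiated control, 119 and 155 in untreated RBM6-KO1 and 173 and 211 CPM in irradiated RBM6-KO1 libraries. COL1A1 ran opposite to this sum, at 11.5 and 14.4 CPM in untreated control and 9.22 and 6.32 CPM in untreated RBM6-KO1 libraries. After IR COL1A1 was at 11.6 and 12.1 CPM in control and 5.05 and 5.43 CPM in RBM6-KO1 libraries. The 7 basal markers summed to 2865 and 3470 CPM in untreated control and 2862 and 3178 in untreated RBM6-KO1 libraries, and to 3029 and 3358 in irradiated control against 2415 and 2560 CPM in irradiated RBM6-KO1 libraries, which did not overlap. In these irradiated libraries KRT5 was at 1621 and 1367 CPM in control against 1056 and 1088 CPM, and CDH1 at 38.0 and 49.4 against 18.9 and 28.2 CPM. TP63 overlapped there, at 25.2 and 46.7 CPM in control against 21.3 and 36.4 CPM. EPCAM was at 19.6 to 26.7 CPM in control and 5.28 to 7.47 CPM in RBM6-KO1 libraries. KRT14 of the same list went the other way, at 42.4 and 62.9 CPM in untreated control and 78.0 and 105 CPM in untreated RBM6-KO1 libraries. After IR KRT14 was at 29.2 and 27.5 CPM in control and 45.3 and 49.9 CPM in RBM6-KO1 libraries. Of 4 endothelial markers, PECAM1 alone exceeded 1 CPM in every library, and the 4 summed to between 3.94 and 11.2 CPM. KDR ran from 3.48 to 9.93 CPM in control and from 0 to 0.929 CPM in RBM6-KO1 libraries. PECAM1 went the other way, from 1.13 to 2.36 CPM in control and from 3.15 to 6.32 CPM in RBM6-KO1 libraries. The part of these marker differences in the results was not tested. In such bulk samples, fewer cells that express a gene and less RNA per cell cannot be told apart.

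All 7 genes were called in both knockout comparisons, a call meaning a change of 2-fold or more whose adjusted p is under 0.05, which 3.12% of 15556 genes tested did in untreated cells and 1.17% of 15587 did after IR. Since the genes were chosen on these comparisons, nothing is read from this count. The same holds for their libraries: for all 7 genes the RBM6-KO1 and control libraries did not overlap, as was the case for 47.7% of all genes in untreated cells and 38.7% after IR. GDA and ATOH8 were higher in RBM6-KO1 cells and the other 5 were lower. Among the 180 genes called higher in untreated cells, ATOH8 ranked 9 by fold and GDA 31. Among the 306 called lower, GAMT ranked 35, GRAMD1B 49, CRAT 54, SLC2A3 58 and FBXO32 93.

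GDA (ENSG00000119125; hg38 chromosome 9, 72114595 to 72257193, + strand) was measured at 50.5 and 52.5 CPM in untreated control cells and at 282 and 272 CPM in untreated RBM6-KO1 cells. After IR, the values were 42.6 and 60.9 CPM in control and 275 and 341 CPM in RBM6-KO1 cells. The lowest RBM6-KO1 library stood 5.17-fold above the highest control library without IR and 4.52-fold after IR. The log2 fold changes were 2.41 (SE 0.14, 5.32-fold) and 2.58 (SE 0.23, 5.96-fold). Within either genotype the irradiated and untreated libraries of GDA overlapped. Its response to IR was 0.00 on the log2 scale in control (SE 0.20, adjusted p = 0.999) and 0.14 in RBM6-KO1 cells (SE 0.16, adjusted p = 0.571). The IR response in RBM6-KO1 minus that in control was 0.15 (SE 0.25).

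Of 19 other genes of purine breakdown and salvage, 17 were tested and 0 were called in either knockout comparison by edgeR or DESeq2. In each, 3 had an unadjusted p under 0.05, beside 2867 of all 15556 genes tested in untreated cells and 1731 of 15587 after IR. At an adjusted p under 0.05 without the fold limit, 2 of the 17 passed in untreated cells and 0 after IR, beside 952 and 189 of all genes tested. The median log2 fold change of the 17 was -0.10 in untreated cells and 0.00 after IR, against 0.01 and 0.02 over all genes tested. The 2 that passed were chosen for mention after their values were seen. ADA, the deaminase of adenosine, changed by -0.68 (SE 0.19, adjusted p = 0.0334), and NT5E, the surface nucleotidase CD73, by 0.62 (SE 0.17, adjusted p = 0.0416). Values for XDH, which oxidizes the xanthine that GDA forms, were 0.32 (SE 0.18, adjusted p = 0.399) and -0.20 after IR (SE 0.17, adjusted p = 0.785), and it too was named after its values were seen. NT5C, a 5′-nucleotidase, fell after IR in RBM6-KO1 cells, from 30.1 and 40.8 to 20.0 and 15.1 CPM (log2 fold change -1.03, SE 0.22, adjusted p = 0.0337). That call was lost with DESeq2, with no filter, without untreated library B and without irradiated library B.

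GAMT (ENSG00000130005; chromosome 19, 1397026 to 1401570, - strand) showed the widest knockout difference of the 7 genes. It had 198 and 282 counts in untreated control libraries against 14 and 9 in untreated RBM6-KO1 libraries, or 12.1 and 15.1 against 0.787 and 0.611 CPM. After IR it had 385 and 444 counts against 13 and 13, or 24.9 and 14.3 against 0.670 and 0.636 CPM. The RBM6-KO1 counts were few but above the limit of 3, and the nearest libraries differed 15.4-fold without IR and 21.3-fold after it. On the log2 scale the differences were -4.27 (SE 0.32, 19.3-fold lower) and -4.88 (SE 0.38, 29.4-fold lower). The irradiated control libraries lay further apart than any other pair for this gene, and without the first or the second of them the latter value was -4.45 or -5.24. Its response to IR was 0.50 in control (SE 0.28, adjusted p = 0.278) and -0.12 in RBM6-KO1 cells (SE 0.51, adjusted p = 0.888), a difference of -0.62 (SE 0.55). The response in control was 0.07 (adjusted p = 0.857) without irradiated library A and 0.85 (adjusted p = 0.0127) without irradiated library B, both under 2-fold.

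The list of creatine and methyl donor genes held 13 others, of which 9 were tested. ARG2, the mitochondrial arginase, was called lower in untreated RBM6-KO1 cells, at 5.21 and 6.11 CPM in control and 2.08 and 1.49 CPM in RBM6-KO1 libraries (log2 fold change -1.66, SE 0.32, adjusted p = 0.00317). It was called under all 11 alternative settings. After IR its value was -0.85 (SE 0.38, adjusted p = 0.477), and 0 of the 9 genes were called by edgeR or DESeq2, with 2 at an unadjusted p under 0.05. In untreated cells 4 of the 9 had an unadjusted p under 0.05, and 2 passed the adjusted p alone, ARG2 and AHCY. Among all genes tested, 2867 of 15556 had an unadjusted p under 0.05 in untreated cells and 1731 of 15587 after IR. The adjusted p alone was passed by 952 of all genes in untreated cells. AHCY changed by -0.52 in untreated cells (SE 0.14, adjusted p = 0.0279) and by -0.48 after IR (SE 0.15, adjusted p = 0.248). It was named after its values were seen. The 9 had a median of -0.29 in untreated cells and -0.48 after IR. GATM, the enzyme of the step before GAMT, did not pass the filter on low counts, its group means lying between 0 and 0.354 CPM, and SLC6A8, the creatine transporter, had values of -0.19 (SE 0.15, adjusted p = 0.559) and -0.27 (SE 0.16, adjusted p = 0.636). These 2 were named after their values were seen.

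CRAT (ENSG00000095321; chromosome 9, 129094142 to 129111189, - strand) was at 44.5 and 42.2 CPM in untreated control cells and 5.51 and 3.87 CPM in untreated RBM6-KO1 cells. After IR it was at 40.7 and 33.0 CPM against 4.48 and 4.65 CPM. The nearest libraries of the 2 genotypes differed 7.65-fold and 7.11-fold. Fitted log2 fold changes were -3.21 (SE 0.22, 9.23-fold lower) and -3.00 (SE 0.22, 8.01-fold lower). Its response to IR was -0.24 in control (SE 0.19, adjusted p = 0.438) and -0.06 in RBM6-KO1 cells (SE 0.27, adjusted p = 0.893), a difference of 0.19 (SE 0.30). CRAT overlaps PTPA on the opposite strand, which had 24582 counts over the 8 libraries against 3507 for CRAT. Whether the counting used strand is not given in the sources used here, so reads of the shared stretch cannot be assigned with certainty.

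Of 15 other genes of the carnitine system and the mitochondrial fatty acid oxidation it feeds, 14 were tested. In both knockout comparisons 0 of them were called by edgeR or DESeq2. At an unadjusted p under 0.05, 1 of them passed in untreated cells and 0 after IR, beside 2867 of the 15556 and 1731 of the 15587 genes tested. The median log2 fold changes of the 14 were 0.11 and 0.11. The 1 was SLC22A5, at -0.46 (SE 0.17, adjusted p = 0.147), the direction of CRAT, and at -0.28 after IR (SE 0.18, adjusted p = 0.697). CROT, the related octanoyltransferase, had values of 0.31 (SE 0.24, adjusted p = 0.564) and 0.23 (SE 0.19, adjusted p = 0.797), and the mitochondrial carnitine carrier SLC25A20 had 0.27 (SE 0.21, adjusted p = 0.553) and 0.29 (SE 0.20, adjusted p = 0.706). SLC22A5, CROT and SLC25A20 were named after their values were seen.

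GRAMD1B (ENSG00000023171; chromosome 11, 123358428 to 123627774, + strand) stood at 77.7 and 56.0 CPM in untreated control and 6.63 and 5.71 CPM in untreated RBM6-KO1 cells. After IR it stood at 85.1 and 70.9 CPM against 7.83 and 9.59 CPM. The nearest libraries differed 8.44-fold without IR and 7.40-fold after it. This gave log2 fold changes of -3.44 (SE 0.21, 10.9-fold lower) and -3.15 (SE 0.21, 8.89-fold lower). Its response to IR was 0.21 in control (SE 0.20, adjusted p = 0.517) and 0.48 in RBM6-KO1 cells (SE 0.23, adjusted p = 0.197), a difference of 0.27 (SE 0.29).

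Of 21 other sterol transport genes, 20 were tested in untreated cells. ABCG1, a cholesterol exporter, was called lower, at 11.5 and 16.7 CPM in control and 6.52 and 3.87 CPM in RBM6-KO1 libraries (log2 fold change -1.44, SE 0.28, adjusted p = 0.00322), and it was called under all 11 alternatives. With the adjusted p alone 4 of the 20 passed, beside 952 of all 15556 genes tested. The other 3 were NPC1, NPC2 and STARD4, which move cholesterol out of lysosomes or through the cytosol. Their log2 fold changes were -0.86 (SE 0.20, adjusted p = 0.0115), -0.94 (SE 0.16, adjusted p = 0.00134) and -0.80 (SE 0.22, adjusted p = 0.0420), and they were named after their values were seen. The median of the list was -0.15 in untreated cells and -0.15 after IR, where 0 of 21 were called by edgeR or DESeq2. After IR 7 of the 21 had an unadjusted p under 0.05, beside 1731 of all 15587 genes tested. ABCG1 averaged 13.4 CPM in irradiated control and 6.67 CPM in irradiated RBM6-KO1 libraries (adjusted p = 0.158). The close paralogs GRAMD1A and GRAMD1C, likewise named afterwards, were at -0.21 (SE 0.14, adjusted p = 0.482) and 0.64 (SE 0.30, adjusted p = 0.255) in untreated cells. GRAMD2A, a related GRAM domain gene, rose after IR in control cells, from 0.674 and 0.911 to 2.85 and 2.19 CPM (log2 fold change 1.62, SE 0.40, adjusted p = 0.0401). This call rested on 11 to 68 counts per library and was lost with DESeq2, with all 8 libraries in 1 fit and without either untreated library.

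SLC2A3 (ENSG00000059804; chromosome 12, 7919230 to 8019007, - strand) was at 40.1 and 37.7 CPM in untreated control and 5.51 and 4.48 CPM in untreated RBM6-KO1 cells. After IR it was at 32.6 and 33.3 CPM against 5.93 and 5.19 CPM. Nearest libraries differed 6.85-fold and 5.50-fold. The log2 fold changes were -2.96 (SE 0.21, 7.81-fold lower) and -2.56 (SE 0.21, 5.90-fold lower). Its response to IR was -0.25 in control (SE 0.18, adjusted p = 0.418) and 0.13 in RBM6-KO1 cells (SE 0.25, adjusted p = 0.748), a difference of 0.39 (SE 0.26). Its near-identical paralog SLC2A14 had 0 or 1 counts in each library, but reads that the counting could split between the 2 leave the level of SLC2A3 uncertain to that extent.

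The list of 17 hexose transporters and their regulators had 9 tested genes in untreated cells and 10 after IR. TXNIP, which promotes removal of glucose transporters from the cell surface, was called lower in untreated RBM6-KO1 cells. It was at 569 and 710 CPM in control and 302 and 240 CPM in RBM6-KO1 libraries (log2 fold change -1.25, SE 0.16, adjusted p = 7.27e-05), a call that all 11 alternatives kept. After IR its value was -0.80 (SE 0.24, adjusted p = 0.228). SLC2A1 (GLUT1), the widely expressed glucose transporter, passed the adjusted p but not the fold limit in untreated cells. It was at 68.8 and 66.7 CPM in control against 40.4 and 34.2 CPM in RBM6-KO1 libraries (log2 fold change -0.87, SE 0.16, adjusted p = 0.00230), and it was named after its values were seen. After IR SLC2A1 was at 84.3 and 81.3 CPM against 43.4 and 52.6 CPM (log2 fold change -0.78, SE 0.17, adjusted p = 0.0982). The list's median was -0.27 in untreated cells and -0.57 after IR, where 0 of 10 were called by edgeR or DESeq2. At an unadjusted p under 0.05, 5 of the 10 passed after IR, beside 1731 of all 15587 genes tested. SLC2A13, a myo-inositol transporter of the same family, rose after IR in RBM6-KO1 cells, from 5.40 and 5.64 to 9.38 and 14.7 CPM (log2 fold change 1.11, SE 0.26, adjusted p = 0.0439). That call was lost with all 8 libraries in 1 fit and without irradiated library B.

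FBXO32 (ENSG00000156804; chromosome 8, - strand) was at 100 and 144 CPM in untreated control and 21.0 and 23.3 CPM in untreated RBM6-KO1 cells. After IR it was at 145 and 162 CPM against 34.2 and 37.3 CPM. Nearest libraries differed 4.30-fold and 3.89-fold, the smallest separation of the 7 genes. As log2 fold changes these were -2.48 (SE 0.18, 5.57-fold lower) and -2.09 (SE 0.16, 4.27-fold lower). The untreated value moved from -2.72 without control library A to -2.18 without control library B.

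Of the 20 F-box ligase partners and FOXO targets, 17 were tested. PIK3IP1, an inhibitor of PI3-kinase and a FOXO target, was called lower in untreated RBM6-KO1 cells, at 4.84 and 6.59 against 2.81 and 1.83 CPM (log2 fold change -1.30, SE 0.32, adjusted p = 0.0186). That call was lost with DESeq2, without control library B and without RBM6-KO1 library B, and after IR its value was -1.07 (SE 0.24, adjusted p = 0.103). The ligase's partners SKP1 and CUL1 had values of 0.00 (SE 0.14, adjusted p = 0.999) and 0.13 (SE 0.15, adjusted p = 0.741) in untreated cells. FOXO1 changed by 0.60 (SE 0.14, adjusted p = 0.0158), in the direction opposite to FBXO32 and under 2-fold, and was at 0.61 after IR (SE 0.22, adjusted p = 0.356). In untreated cells FOXO3 was at 0.45 (SE 0.15, adjusted p = 0.0979). FOXO4 went with FBXO32, at -0.59 (SE 0.24, adjusted p = 0.179). SKP1, CUL1, FOXO1, FOXO3, FOXO4 and TRIM63 were named after their values were seen. TRIM63, the other muscle ligase usually measured with FBXO32, did not pass the filter, with group means of 0 to 0.0679 CPM. The median of the list was 0.00 in untreated cells and -0.01 after IR, where 0 of 17 were called by edgeR or DESeq2. At an unadjusted p under 0.05, 2 of the 17 passed after IR, beside 1731 of all 15587 genes tested.

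ATOH8 (ENSG00000168874; chromosome 2, 85751344 to 85791383, + strand) had 22 and 30 counts in untreated control libraries and 312 and 301 in untreated RBM6-KO1 libraries, or 1.35 and 1.61 against 17.5 and 20.4 CPM. After IR it had 41 and 79 counts against 408 and 438, or 2.65 and 2.54 against 21.0 and 21.4 CPM. The nearest libraries differed 10.9-fold and 7.93-fold. Fitted log2 fold changes were 3.66 (SE 0.27, 12.6-fold) and 3.04 (SE 0.22, 8.22-fold).

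The list of bHLH partners and BMP pathway genes held 26 others, 19 of them tested in each knockout comparison. BMP6, a BMP ligand, was called higher in both. It was at 4.72 and 5.20 against 14.7 and 7.95 CPM in untreated cells (log2 fold change 1.19, SE 0.29, adjusted p = 0.0167) and at 5.17 and 7.04 against 18.5 and 21.5 CPM after IR (log2 fold change 1.70, SE 0.24, adjusted p = 0.0258). The untreated call was lost without RBM6-KO1 library A and with all 8 libraries in 1 fit, and the call after IR held under all 11 alternatives. ID1, an inhibitor of bHLH factors that BMP signalling induces, changed by -0.57 in untreated cells (SE 0.14, adjusted p = 0.0181), the opposite direction to BMP6 and ATOH8, and was at -0.19 after IR (SE 0.17, adjusted p = 0.802). ID3, of the same family, went with BMP6 and ATOH8, at 0.55 in untreated cells (SE 0.17, adjusted p = 0.0749). After IR ID3 was at 0.28 (SE 0.19, adjusted p = 0.705). ID1 and ID3 were named after their values were seen. The medians of the list were -0.03 and 0.11. The E protein partners TCF3, TCF12 and TCF4, likewise named afterwards, were at -0.06 (SE 0.14, adjusted p = 0.875), 0.02 (SE 0.22, adjusted p = 0.982) and 0.53 (SE 0.21, adjusted p = 0.161) in untreated cells. After IR in RBM6-KO1 cells, BMP2 rose from 29.3 and 17.1 to 42.6 and 56.6 CPM (log2 fold change 1.08, SE 0.26, adjusted p = 0.0450), a call lost with all 8 libraries in 1 fit, without untreated library B and without irradiated library B. ACVRL1, a receptor of the pathway, fell from 19 and 9 counts to 2 and 0 (edgeR adjusted p = 0.0440), and with so few counts no fold is given. That call was lost with DESeq2, with the stricter filter, without untreated library A and without irradiated library B.

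**Figure D1:**
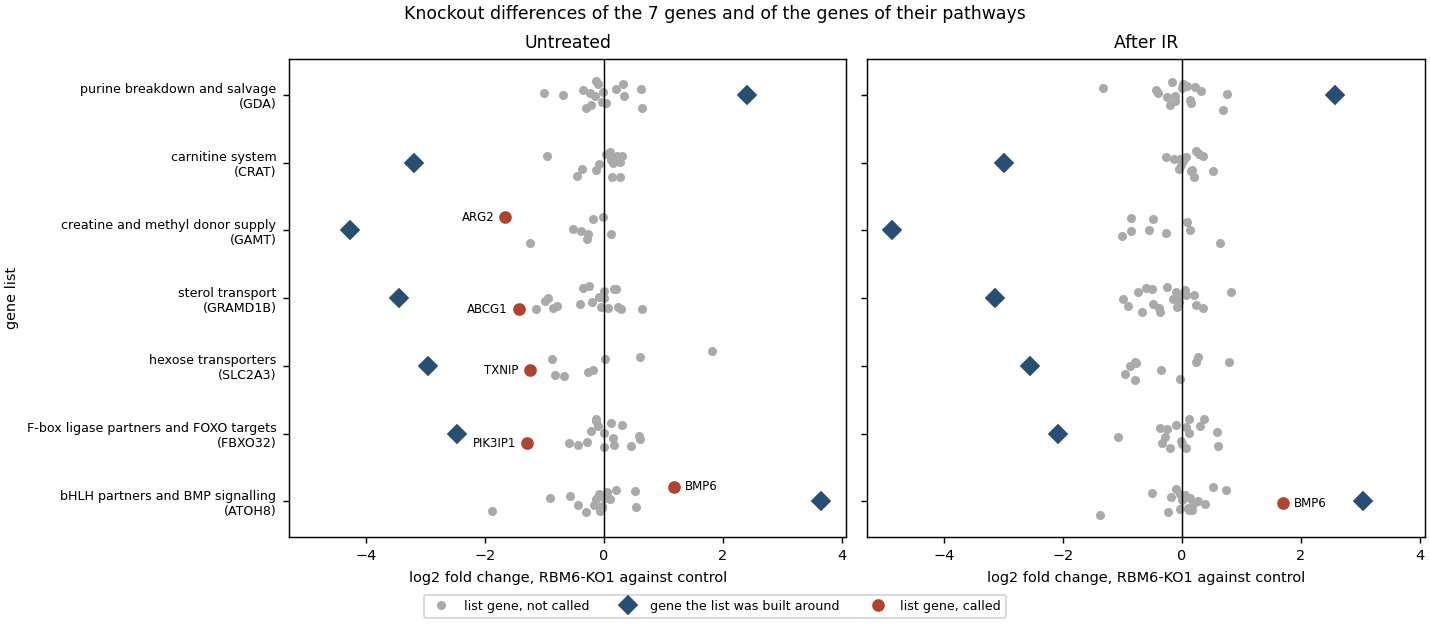
Log2 fold change of RBM6-KO1 against control (horizontal) for the tested genes of the 7 lists (rows), untreated on the left and after IR on the right. Diamonds are the genes the lists were built around, red points list genes called and grey points list genes not called. The diamonds, chosen for these differences, lie between -4.88 and 3.66, and the called genes are ARG2, ABCG1, TXNIP, PIK3IP1 and BMP6 in untreated cells and BMP6 after IR.

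Over all 7 lists, 1 gene was called higher and 4 lower of 105 tested in untreated cells, or 4.76% beside the 3.12% of all genes, and after IR 1 higher and 0 lower of 107, or 0.935% beside 1.17%. The medians were -0.09 and -0.03. In response to IR, 2 of 106 list genes were called higher and 0 lower in control cells (1.89% beside 3.59% of all genes), and 3 higher and 2 lower of 107 in RBM6-KO1 cells (4.67% beside 3.11%). The medians of the IR responses were 0.24 and 0.32, against 0.02 and -0.01 over all genes tested. SESN1, a sestrin induced by p53, rose with IR in both genotypes, from 15.7 and 18.6 to 44.0 and 46.3 CPM in control (log2 fold change 1.38, SE 0.20, adjusted p = 0.00489) and from 14.3 and 14.0 to 34.2 and 39.2 CPM in RBM6-KO1 cells (log2 fold change 1.36, SE 0.18, adjusted p = 0.00790). Both calls held under all 11 alternatives.

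The 7 genes were not chosen on their response to IR, which was tested. In edgeR's quasi-likelihood test 0 of 7 were called in control cells, where 3.59% of 15412 genes were, and 0 of 7 in RBM6-KO1 cells, where 3.11% of 15598 were. DESeq2 also called 0 in either genotype. At an unadjusted p under 0.05, 1 gene passed in each, ATOH8 in control and FBXO32 in RBM6-KO1 cells. That limit was passed by 3918 of 15412 genes tested in control and 4613 of 15598 in RBM6-KO1 cells. Irradiated and untreated libraries did not overlap for 4 of the 7 genes in control cells (CRAT, SLC2A3, FBXO32 and ATOH8) and for 3 in RBM6-KO1 cells (GRAMD1B, FBXO32 and ATOH8), shares to be read against 57.1% and 62.1% of all genes.

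FBXO32 was higher after IR in both genotypes, and every irradiated library exceeded every untreated one of its genotype, in control by a narrow margin of 144 to 145 CPM. The log2 change was 0.32 in control (SE 0.19, adjusted p = 0.304), where it was 0.41 (adjusted p = 0.0369) without irradiated library A and 0.06 (adjusted p = 0.941) without untreated library A, and 0.68 in RBM6-KO1 cells (SE 0.17, unadjusted p = 0.00293, adjusted p = 0.0505). Over the alternatives the adjusted p in RBM6-KO1 cells ran from 0.0115 to 0.168, and the change stayed under 2-fold in all of them in both genotypes. The difference between the genotypes' responses was 0.36 (SE 0.25). ATOH8 changed by 0.79 in control cells (SE 0.35, unadjusted p = 0.0411, adjusted p = 0.180) and by 0.15 in RBM6-KO1 cells (SE 0.18, adjusted p = 0.617), a difference of -0.64 (SE 0.30). This difference and the others between genotypes come from the 2 comparisons that chose the genes and carry no test.

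**Figure D2:**
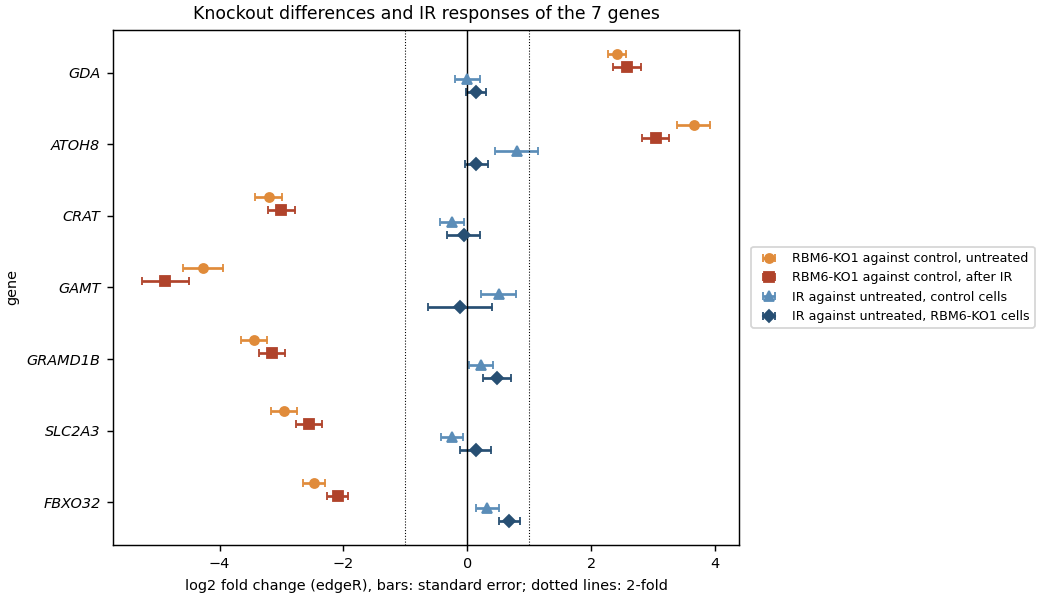
Log2 fold change (horizontal) of each gene (vertical) in the 2 knockout comparisons and the 2 IR comparisons, with standard errors as bars and dotted lines at a 2-fold change. The knockout differences lie beyond 2-fold in both states, from -4.88 for GAMT to 3.66 for ATOH8, while the IR responses lie between -0.25 and 0.79.

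Per kilobase of exon, the order of the 7 genes differed between the genotypes. In untreated control cells FBXO32 was highest at 16.5 ± 4.19 CPM per kb (SD, n = 2), followed by GDA at 6.52 ± 0.178, CRAT at 5.73 ± 0.219, GAMT at 5.67 ± 0.874, SLC2A3 at 5.37 ± 0.231 and GRAMD1B at 4.48 ± 1.03 CPM per kb. From CRAT to GRAMD1B each gene's libraries overlapped those of the next. ATOH8 was far below them, at 0.159 ± 0.0197 CPM per kb, a level above that of only 6.60% of the genes kept for comparison. In untreated RBM6-KO1 cells GDA was highest at 35.0 ± 0.909, followed by FBXO32 at 2.99 ± 0.223 and ATOH8 at 2.04 ± 0.221, and then by SLC2A3 at 0.689 ± 0.100, CRAT at 0.620 ± 0.153, GRAMD1B at 0.413 ± 0.0439 and GAMT at 0.291 ± 0.0517 CPM per kb. Only SLC2A3 and CRAT overlapped as neighbours in that order. GDA thus stood above 67.4% of genes in control and 93.0% in RBM6-KO1 cells, whereas GAMT stood above 64.5% and 12.0%, and FBXO32 above 84.6% and 49.7%. After IR the first 3 places in RBM6-KO1 cells were the same, and in control cells FBXO32 remained first at 20.7 ± 1.58 and ATOH8 last at 0.279 ± 0.00847 CPM per kb, the others between them overlapping in turn.

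The pattern of each gene over the 8 libraries was compared with 16548 other genes by the root mean square (RMS) difference of centred log2 CPM, a description in which the libraries' 4 groups are shared. The prior count of 2 in these log2 CPM shrinks the differences of genes with few counts. Nearness to such a gene is therefore not a match in fold. CRAT and SLC2A3 were each other's nearest gene, with an RMS difference of 0.22 log2 units, although they lie on different chromosomes. Next for CRAT came NUP210, a nuclear pore protein, at 0.27, and for SLC2A3 came GGT7 at 0.25. NUP210 was also near GRAMD1B, at 0.28, as was WT1, a transcription factor that averaged under 1 CPM in every group, at 0.28. FBXO32 was nearest to LARGE2, a glycosyltransferase, and WNT9A, a WNT ligand, at 0.18 each. GAMT was nearest to VWA1 at 0.30 and PYCARD, an inflammasome adaptor, at 0.36, both between 0 and 0.0245 CPM on average in the RBM6-KO1 groups. GDA was nearest to APOC3, an apolipoprotein, at 0.21 and FBXL13 at 0.25, both at or under 1.74 CPM in every group. ATOH8 had no gene so close, LINC03068 being nearest at 0.44 and PDE3B, a phosphodiesterase, next at 0.49. Among the members themselves the distances of the 5 lower genes ran from 0.22 for CRAT and SLC2A3 to 1.12 for GAMT and FBXO32, and GDA and ATOH8 were 0.51 apart.

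The differences were also read along the chromosomes, over the 5 nearest tested genes on either side of each member. Of these 70 neighbours, 2 were called higher and 1 lower in untreated RBM6-KO1 cells, and 1 was called higher after IR, or 4.29% and 1.43% beside the 3.12% and 1.17% of all genes tested. Of the 50 neighbours of CRAT, GAMT, GRAMD1B, SLC2A3 and FBXO32, 0 were called in either knockout comparison by edgeR or DESeq2. At an unadjusted p under 0.05, 7 of the 50 passed in untreated cells and 5 after IR. That limit was passed by 2867 of all 15556 genes tested in untreated cells and 1731 of 15587 after IR. Beside GDA, the long non-coding RNA ENSG00000235523 starts 143 bases past the end of GDA on the same strand (chromosome 9, 72257336 to 72257783). It had 8 and 6 counts in untreated control and 79 and 74 in untreated RBM6-KO1 libraries, and 0 and 10 against 29 and 31 after IR. On the log2 scale the differences were 3.52 (SE 0.42, adjusted p = 3.86e-05) and 2.86 (SE 0.74, adjusted p = 0.158). Unlike GDA, it fell with IR in RBM6-KO1 cells, by 1.66 on the log2 scale (SE 0.30, adjusted p = 0.0219), a call lost with all 8 libraries in 1 fit. The untreated call could not be made under the filter of 10 counts in every library. ALDH1A1, a retinaldehyde dehydrogenase 643478 bases past GDA, was called lower in untreated cells, with 21 and 29 counts against 1 and 5 (log2 fold change -2.90, SE 0.67, adjusted p = 0.0122). It was called under 6 of 11 alternatives and lost without control library B and without RBM6-KO1 library A. SFTPB, a surfactant protein gene 82603 bases from ATOH8 on the opposite strand, was called higher in both states. It had 40 and 74 counts in untreated control and 145 and 129 in untreated RBM6-KO1 libraries (log2 fold change 1.37, SE 0.28, adjusted p = 0.00565), and 24 and 61 against 124 and 124 after IR (log2 fold change 1.81, SE 0.28, adjusted p = 0.0333). The latter call was lost under the filter of 10 counts in every library.

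The 7 genes differed in base composition and length. The GC content of the longest transcript was 38.8% for GDA, 43.5% for FBXO32, 45.8% for SLC2A3, 52.4% for GRAMD1B, 57.3% for ATOH8, 59.6% for GAMT and 59.7% for CRAT, with quartiles of 41.8%, 47.8% and 55.7% over 16417 genes. Genes within 2.5 percentage points of a member's GC content had median knockout differences between -0.10 and 0.15 in untreated cells and between -0.09 and 0.16 after IR. These medians were highest around GDA, at 0.15 and 0.16, and lowest around GAMT and CRAT. Around ATOH8, which was higher in RBM6-KO1 cells, they were -0.09 and -0.07. Exon lengths ran from 2403 bases for GAMT to 14932 bases for GRAMD1B. Other annotated genes that overlap a member (CRAT and PTPA apart) had at most 67 counts over the 8 libraries.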

How the data were processed

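Total RNA of 8 MCF10A-Hras libraries was converted with a TruSeq mRNA kit and read as paired ends. After alignment to hg38, the authors deposited 1 table of raw counts, whole numbers with 1 row per Ensembl gene. The submitters' processing notes name STAR and DESeq2. The counting tool, annotation and strandedness are not given in the sources used here. Columns were matched to samples by their names and 0 columns were left out. Totals ran from 15355281 to 29832009 counts per library, and limits from 3 counts include only counting error.

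The software was edgeR 4.0.16, DESeq2 1.42.0 and limma 3.58.1 under R 4.3.3. For each comparison its 4 libraries were filtered with filterByExpr, scaled by TMM and tested with edgeR's quasi-likelihood method, and a call needed a Benjamini-Hochberg adjusted p under 0.05 over all genes tested and at least a 2-fold change. The script was tested on simulated data. A standard error is the log2 fold change divided by the square root of F. Levels are TMM-normalized CPM over all 8 libraries, and levels per kb use the union exon length of GENCODE v44, which also gave symbols, positions and GC content. Likeness between genes was computed from log2 CPM (prior count 2). The members and the 7 gene lists (131 genes) were chosen with earlier results of these data known. Genes named are the members, RBM6, called list genes, the 2 most alike genes of each member, called neighbours, overlapping genes, and those stated to have been chosen later. Sequences are from RefSeq (GRCh38.p14). Alternatives were DESeq2 size factors, upper quartile scaling, DESeq2's Wald test, no filter, at least 10 counts in every library, the replicate letter as a block, 1 fit over all 8 libraries, the adjusted p alone, and each library left out in turn, where the lone library is assumed to vary like the others. With 2 libraries per group, p-values rest on few degrees of freedom.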

Additional observations from a re-analysis of the deposited data

How the results depend on the processing

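The knockout differences of the 7 genes kept their direction under every alternative run for them. Of the 403 alternative values of the members, those for IR responses led to no call. Those for knockout differences and differences in IR response were not compared by call. They moved by no more than the SD between replicates. That SD comes from the same 2 libraries per group, so leaving a library out could hardly exceed it, and nothing is read from this. Leaving out a library moved the knockout difference of GAMT after IR most, between -5.24 and -4.45. GAMT was not tested with at least 10 counts in every library in untreated cells or for IR in RBM6-KO1 cells. Small IR responses changed sign, that of GDA in control cells under 6 of 11 alternatives, and those of GDA, CRAT and GAMT in RBM6-KO1 cells under 1 each, and the difference between the genotypes' IR responses did so for GDA under 2 of 14 and for CRAT under 1 of 14. The number of genes called, and with it the number of list genes and neighbours called, depended more on the setting. The cause was not tested.

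Over all genes, untreated knockout calls went from 486 to 952 with the adjusted p alone and to between 399 and 658 with a library left out. Knockout calls after IR went from 182 to 280 with DESeq2's Wald test, 506 with no filter, 71 with at least 10 counts in every library, 340 with all 8 libraries in 1 fit and between 169 and 477 with a library left out (406, or 114 higher and 292 lower, without irradiated control A, and 477, or 246 higher and 231 lower, without B, against 55 and 127). IR calls in control cells went from 553 to 962 with no filter, 881 with the adjusted p alone and between 287 (without untreated B) and 1406 (without irradiated A). In RBM6-KO1 cells they went from 485 to 1011 with no filter, 884 with the adjusted p alone and between 289 (without irradiated B) and 1563 (without irradiated A).

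List genes called in untreated knockout cells went from 5 to 14 with the adjusted p alone and to between 5 and 8 with a library left out. After IR they went from 1 to 3 with no filter and to between 1 and 7 with a library left out, 7 without either irradiated control library, being 1 higher and 6 lower without A and 6 higher and 1 lower without B. For IR in control cells they went from 2 to 4 with DESeq2 size factors, 4 with upper quartile scaling, 9 with no filter, 1 with all 8 libraries in 1 fit, 6 with the adjusted p alone and between 1 and 11 with a library left out. For IR in RBM6-KO1 cells they went from 5 to 3 with DESeq2's Wald test, 8 with no filter, 3 with all 8 libraries in 1 fit and between 1 and 10 with a library left out.

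Neighbours called after IR in knockout cells went from 1 to 4 with no filter, 0 with at least 10 counts in every library, 2 with all 8 libraries in 1 fit and between 2 and 3 with a library left out. For IR in control cells they went from 3 to 5 with the adjusted p alone and between 0 and 10 with a library left out. For IR in RBM6-KO1 cells they went from 2 to 4 with no filter, 0 with all 8 libraries in 1 fit and between 1 and 9 with a library left out.

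The replicate letters give 2 pairs per comparison, and the labels do not say that a letter marks a shared day or batch, so the libraries share only a letter. The differences between A and B correlated across 16549 genes at 0.0789 and 0.350 between the genotypes (untreated, after IR) and at -0.181 and -0.257 between irradiated and untreated cells (control, RBM6-KO1). With the replicate block, calls over all genes were 524 and 541 for the knockout, untreated and after IR, and 637 and 646 for IR in control and RBM6-KO1 cells. With the block, list genes called after IR in knockout cells were 4, and neighbours called were 4 there and 4 for IR in RBM6-KO1 cells.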

Other observations

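Neighbours of the members were also read for their response to IR. In control cells 0 of 70 were called higher and 3 lower (4.29% beside 3.59% of all genes tested). The pseudogene ENSG00000255836, 479240 bases from SLC2A3, had 31 and 59 counts without IR and 10 and 13 after it, the long non-coding RNA ENSG00000268798, 39269 bases from GAMT, had 31 and 49 against 6 and 14, and FAM83A-AS1, 295146 bases from FBXO32, had 207 and 266 against 102 and 185. Each of these 3 calls was lost without untreated control library B, that of ENSG00000255836 also with all 8 libraries in 1 fit and that of ENSG00000268798 also with at least 10 counts in every library. In RBM6-KO1 cells 0 of 70 were called higher and 2 lower (2.86% beside 3.11%), the RNA beside GDA described above and the pseudogene ENSG00000255342, 222052 bases from GRAMD1B, with 45 and 62 counts without IR and 26 and 14 after it. The latter call was lost with all 8 libraries in 1 fit and without untreated or irradiated RBM6-KO1 library B.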
